A study of Homo sapiens with 9 samples.

Results

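The NF-kappaB core was examined as 10 genes in peak lists of open chromatin from HEK293T cells, with the 5 subunit genes NFKB1, NFKB2, REL, RELA and RELB, the 3 inhibitor genes NFKBIA, NFKBIB and NFKBIE, and the 2 kinase genes CHUK and IKBKB. They were chosen by name, out of 20037 protein-coding genes, and every peak in the body of a gene or within 10 kb of it was taken. Peaks of the 4 lists that shared at least 1 bp were joined into sites, which gave 25 sites of 71597 in the whole series. The window held 21 of 39194 peaks of the control list, 22 of 50917 of the IGF2BP1 knockout list, 25 of 60262 of the IGF2BP2 knockout list and 21 of 44041 of the IGF2BP3 knockout list.

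HEK293T is an established human embryonic kidney line, here untreated, and accessible DNA was read by ATAC-seq, an assay that cuts and tags open chromatin with a transposase. IGF2BP1, IGF2BP2 and IGF2BP3 are RNA-binding proteins, also called IMP1, IMP2 and IMP3. The control group had received Cas9 with a guide that targets no mammalian gene and was sequenced as 2 libraries of batches 2 and 3, and so were the IGF2BP2 and IGF2BP3 knockouts. IGF2BP1 knockout cells gave 3 libraries, 1 in each of batches 1, 2 and 3. Each knockout was 1 clone grown from a single sorted GFP-positive cell after transient transfection of plasmids that carried 3 guides, so genotype and clone cannot be told apart. Whether the control was also a single clone is not given in the labels. The authors deposited 1 list per group, holding the position of each peak without a height or a score. With 1 list per group no spread between replicates was measured and no test was made, batch 1 could not be separated from the IGF2BP1 knockout, and the read depth behind the lists is unknown. All 3 comparisons used the same control list.

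NF-kappaB is a family of dimeric transcription factors that sit in the cytoplasm of resting cells, held there by inhibitor proteins of the I-kappaB family. Signals from receptors of the tumour necrosis factor, interleukin-1 and Toll-like families activate the I-kappaB kinase complex, which marks the inhibitors for destruction and lets RELA and REL dimers enter the nucleus. A second route works through CHUK alone and leads to processing of the NFKB2 precursor, which pairs with RELB. Several genes of the family, among them NFKBIA, NFKB2 and REL, are known targets of NF-kappaB, through promoter elements called kappaB sites. IGF2BP proteins act on RNA, and accessibility at these genes does not measure their RNA or the activity of the pathway.

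Promoter sequences were set beside the peaks to show which kappaB elements lay in open DNA. The RefSeq promoter table (GRCh38.p14) held 12 starts of 7 of the genes, with RELB, NFKBIE and IKBKB not matched. In the 250 bases before each start, both strands were searched for the 10-base kappaB consensus. A match was found at 6 of 12 starts, in 5 of 7 genes (NFKB1, NFKB2, REL, NFKBIA and NFKBIB), against 9.96% of the 35116 promoters of the table. CHUK and RELA had no match in these windows. A match of letters is a description, not a bound site. The 4 windows below are shown because they carry the matches of NFKB1, REL and NFKBIA, which were open in every list, and of the third NFKB2 start, which was not. They are chr4:102501109-102501358 (plus strand), chr2:60881324-60881573 (plus strand), chr14:35404750-35404999 (minus strand) and chr10:102395455-102395704 (plus strand), written 5′ to 3′ on the strand of the gene and ending at the base before the start, with kappaB matches in capitals.
NFKB1, first start: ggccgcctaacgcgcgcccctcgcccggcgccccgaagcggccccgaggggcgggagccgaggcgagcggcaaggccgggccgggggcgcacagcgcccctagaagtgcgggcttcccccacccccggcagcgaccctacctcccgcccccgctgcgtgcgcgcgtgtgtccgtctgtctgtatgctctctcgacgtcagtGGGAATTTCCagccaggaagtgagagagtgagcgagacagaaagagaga
REL: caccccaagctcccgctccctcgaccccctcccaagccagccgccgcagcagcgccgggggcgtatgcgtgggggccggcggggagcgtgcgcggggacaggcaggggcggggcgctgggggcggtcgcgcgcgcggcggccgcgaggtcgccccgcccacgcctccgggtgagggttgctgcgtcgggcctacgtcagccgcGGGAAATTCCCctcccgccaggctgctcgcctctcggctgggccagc
NFKBIA: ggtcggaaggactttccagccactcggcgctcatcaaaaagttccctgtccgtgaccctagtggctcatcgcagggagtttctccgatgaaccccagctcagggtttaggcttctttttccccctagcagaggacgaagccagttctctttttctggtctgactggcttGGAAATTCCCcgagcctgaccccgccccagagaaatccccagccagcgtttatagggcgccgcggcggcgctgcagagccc
NFKB2, the third start: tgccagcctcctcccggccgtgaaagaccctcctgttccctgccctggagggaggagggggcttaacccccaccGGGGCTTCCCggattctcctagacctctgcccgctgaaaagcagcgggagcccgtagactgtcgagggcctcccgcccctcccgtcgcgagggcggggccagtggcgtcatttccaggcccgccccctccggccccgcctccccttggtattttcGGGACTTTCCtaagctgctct

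The match of NFKB1 began 49 bases before its start, that of NFKBIA 81 bases before, and that of REL, which reads on both strands, 47 bases before. The third NFKB2 start had matches that began 176 and 21 bases before it. Before the second NFKB2 start, at 102394578 on chromosome 10, stood GGGAATTCCCC, 107 bases before the start and read on both strands, and GGGGCTTTCC, 78 bases before. Before the second NFKBIB start, at 38899969 on chromosome 19, stood GGGAATTTCCC, 28 bases before and read on both strands. Among other motifs, again on both strands, the GC box GGGCGG was found at 9 of 12 starts (42.6% of the promoters of the table) and TGACG, the core of the cyclic AMP response element, at 9 of 12 (21.2%). The full palindromic element was found at 0 of 12 (1.65%), CCAAT at 3 of 12 (32.0%) and the ETS core CCGGAA at 3 of 12 (14.5%). Starts of 1 gene lie close together and are not independent, and the GC content of the 12 windows ranged from 48.4 to 79.6% against a median of 58.0% in the table.

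The 4 lists differed in length and in peak width, with a median width of 771 bp in the control and of 834, 651 and 713 bp after IGF2BP1, IGF2BP2 and IGF2BP3 knockout. Widths were therefore also given as percentiles among all peaks of the same list. The cell line label was compared with markers. Of 10 genes of kidney development, 8 had a peak within 1 kb of a start (or of a gene end, where no start was matched) in the control list, PAX2 and WT1 among them, and PAX8 had none in any list. All 4 neural genes known from this line had one in every list. Of 7 genes of the mature kidney, 0 had one in the control, and NPHS1 had one in the IGF2BP1 and IGF2BP2 knockouts. Of 8 blood genes, 1 had one in the control (SPI1). The title of the series names leukemia stem cells, which none of these libraries are.

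All 10 genes had a promoter peak in each of the 4 lists, where a promoter peak lies within 1 kb of a start. For RELB, NFKBIE and IKBKB the gene end that a peak overlapped was used in place of the start, so that having a peak was fixed by the choice. The other 7 had annotated starts. Among the 15842 coding genes with a start in the table, 66.8% had a promoter peak in all 4 lists. No member lost its promoter peak, and a loss was seen at 0.787, 1.69 and 1.83% of all coding genes with a control promoter peak after IGF2BP1, IGF2BP2 and IGF2BP3 knockout. The promoter peaks of the members ranged from 807 to 1969 bp in the control (median 1229.5 bp, against 1154 bp for all promoter peaks), and 6 of 10 were wider than that overall median.

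**Figure D1:**
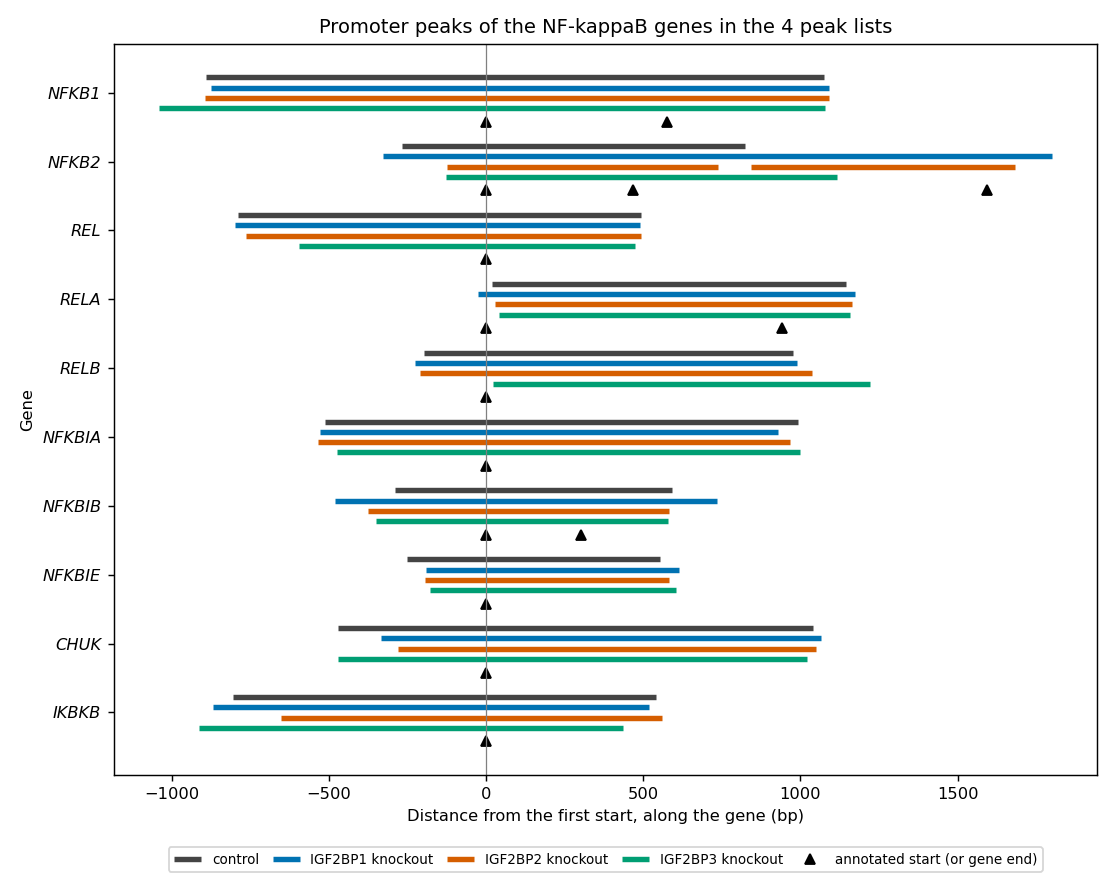
Position of the promoter peaks (bars, coloured by list) relative to the first annotated start of each gene, in bp along the gene, with triangles at annotated starts (at the gene end for RELB, NFKBIE and IKBKB). The NFKB2 peak reached the third start in the IGF2BP1 and IGF2BP2 knockouts, and the RELB peak of the IGF2BP3 knockout began 23 bp inside the gene.

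NFKB1 encodes p105, the precursor of the p50 subunit. Its promoter peak was the widest of the family in the control list and covered both of its starts (102501359 and 102501934 on chromosome 4) in every list. It measured 1969 bp in the control (102500467 to 102502435), 1966 bp after IGF2BP1 knockout, 1986 bp after IGF2BP2 knockout and 2121 bp after IGF2BP3 knockout. These widths lay at percentiles 97.9 to 99.3 of their lists. The outer edge moved by 167 bp among the 4 lists, against a median of 119 bp over 9209 coding genes with 1 promoter peak in each list. The edge inside the gene moved by 15 bp, against a median of 148 bp over the same genes.

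NFKB2 encodes p100, the precursor of p52, and was the member whose promoter varied most. The control peak ran from 102393841 to 102394935 on chromosome 10 (1095 bp) and covered the starts at 102394110 and 102394578. The IGF2BP1 knockout peak ran from 102393783 to 102395912 (2130 bp) and covered these and the third start at 102395705. The IGF2BP2 knockout had a pair of peaks in the same stretch, of 863 bp (102393986 to 102394848) and 843 bp (102394952 to 102395794), the latter over the third start. The IGF2BP3 knockout peak ran from 102393981 to 102395228 (1248 bp). The third start, with its kappaB matches, thus lay in a peak of the IGF2BP1 and IGF2BP2 knockouts, and 770 bp from the nearest peak of the control and 477 bp from that of the IGF2BP3 knockout. All 250 bases printed above for this start were covered in the first pair of lists and 0 in the other pair. Of the 9068 starts of coding genes that no control peak covered, 8.03% were covered in the IGF2BP1 knockout, 6.35% in the IGF2BP2 knockout and 5.35% in the IGF2BP3 knockout. Of the 12 starts of the members, 10 were covered in the control, 12 in the IGF2BP1 knockout, 11 in the IGF2BP2 knockout and 10 in the IGF2BP3 knockout.

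REL encodes c-Rel, and the joined site of its promoter peaks also overlapped an end of the neighbouring non-coding gene REL-DT. The widths of the REL peak were 1283 bp in the control (60880786 to 60882068 on chromosome 2), 1291 bp after IGF2BP1 knockout, 1259 bp after IGF2BP2 knockout and 1069 bp after IGF2BP3 knockout. The last was the narrowest. Its outer edge began at 60880979, while the edge inside the gene moved by 21 bp among the lists. The 250 bases with the kappaB match of REL were covered in all 4 lists.

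RELA encodes p65, the main activating subunit. Its promoter peak measured 1128 bp in the control (65662712 to 65663839 on chromosome 11), 1203 bp after IGF2BP1 knockout, 1138 bp after IGF2BP2 knockout and 1117 bp after IGF2BP3 knockout. All 4 peaks covered the start at 65662916, and the site into which they were joined overlapped an end of RELA-DT. The outer start at 65663857 lay in the IGF2BP1 knockout peak and 18, 28 and 42 bp outside the peaks of the control, IGF2BP2 and IGF2BP3 knockouts. The outer edges of the 4 peaks lay within 69 bp of each other.

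RELB encodes the subunit of the NFKB2 pathway. Its peak at the gene end at 45001464 on chromosome 19 measured 1176 bp in the control, 1218 bp after IGF2BP1 knockout, 1248 bp after IGF2BP2 knockout and 1201 bp after IGF2BP3 knockout. In the IGF2BP3 knockout it was displaced, from 45001487 to 45002687 against 45001267 to 45002442 in the control, and no longer overlapped the gene end. Its width was nearly the same as in the other lists.

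Among the inhibitors, NFKBIA encodes I-kappaB-alpha, which NF-kappaB induces and which ends the response. Its peak was the most even of the family, with widths of 1508 bp in the control (35403756 to 35405263 on chromosome 14), 1458 bp after IGF2BP1 knockout, 1503 bp after IGF2BP2 knockout and 1472 bp after IGF2BP3 knockout. The widest of these was 1.03 times the narrowest. The kappaB match of its promoter was covered in all 4 lists.

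NFKBIB, which encodes I-kappaB-beta, shares the joined site of its promoter peaks with the start of SIRT2, a NAD-dependent deacetylase gene on the opposite strand. The peak measured 884 bp in the control (38899376 to 38900259 on chromosome 19), 1216 bp after IGF2BP1 knockout, 958 bp after IGF2BP2 knockout and 930 bp after IGF2BP3 knockout. It was wider in all 3 knockout lists than in the control, and in the IGF2BP1 knockout it extended on both sides. Its ratios to the control, each width divided by its list median, were ranked among the coding genes. They stood at percentiles 90.5, 76.1 and 67.2 after IGF2BP1, IGF2BP2 and IGF2BP3 knockout, all against the same control peak. NFKBIE, which encodes I-kappaB-epsilon, had the narrowest promoter peak of the family, with 807 bp in the control (44264998 to 44265804 on chromosome 6), 808 bp after IGF2BP1 knockout, 776 bp after IGF2BP2 knockout and 783 bp after IGF2BP3 knockout. These lay at percentiles 47.3 to 64.1 of their lists, near the middle.

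The kinase gene CHUK encodes IKK-alpha, the kinase common to both routes. Its promoter peaks lay in a joined site that also overlapped an end of CHUK-DT. The CHUK peak measured 1511 bp in the control (100228557 to 100230067 on chromosome 10), 1400 bp after IGF2BP1 knockout, 1333 bp after IGF2BP2 knockout and 1493 bp after IGF2BP3 knockout. It was widest in the control. IKBKB encodes IKK-beta, the kinase of the route to RELA. Its peaks at the gene end at 42271302 on chromosome 8 lay in a joined site that also overlapped an end of IKBKB-DT. The IKBKB peak measured 1347 bp in the control, 1389 bp after IGF2BP1 knockout, 1216 bp after IGF2BP2 knockout and 1351 bp after IGF2BP3 knockout, at percentiles 87.2 to 89.8.

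**Figure D2:**
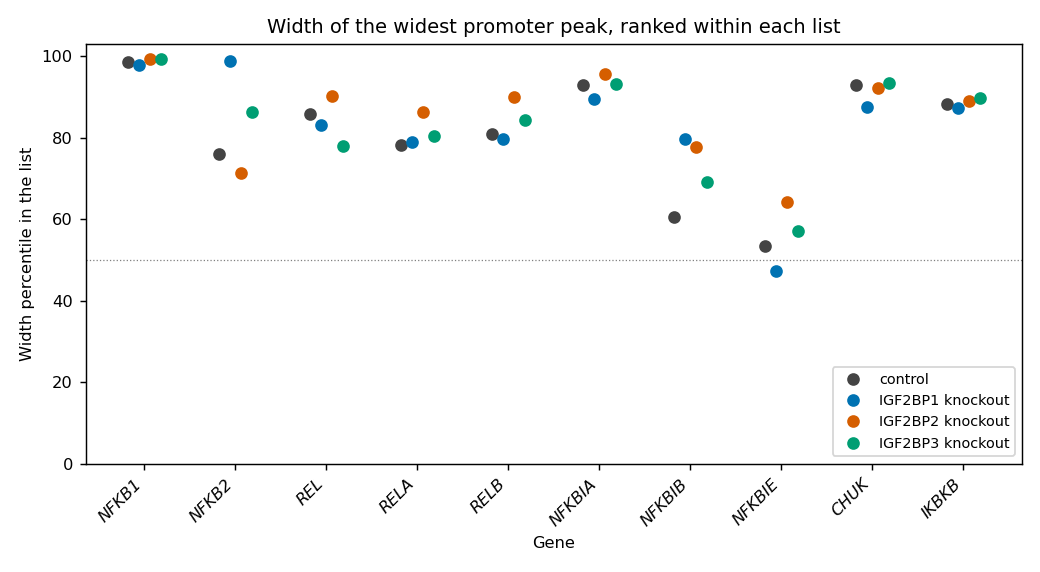
Percentile of the width of the widest promoter peak of each gene among all peaks of the same list, 1 point per list, with the dotted line at the middle of a list. All but 1 of the points lie above it, the NFKBIE peak of the IGF2BP1 knockout (47.3) being the exception, and NFKB2 spreads from 71.3 to 98.8. The 71.3 is the wider of the pair of NFKB2 peaks in the IGF2BP2 knockout.

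Compared within lists, the median percentile of the members was 83.3 in the control and 85.2, 89.5 and 85.3 after IGF2BP1, IGF2BP2 and IGF2BP3 knockout, while the median promoter peak of all coding genes stood at 79.5, 81.8, 85.5 and 81.7 in the same order. The widest promoter peak was at most 1.38 times the narrowest in 9 genes, and 2.47 times in NFKB2. The narrowest NFKB2 value, 863 bp, is the wider of the pair of peaks in the IGF2BP2 knockout. Summed, that pair measured 1706 bp, against 1095 bp in the control. For the 9 genes with 1 promoter peak in each list, the edge inside the gene moved by less than the median of all coding genes in 7, and the outer edge (median 119 bp) in 3.

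Whether any promoter peak was wider or narrower than in the control was asked with each width divided by the median of its list, and a ratio of 1.5 in either direction was called. NFKB2 in the IGF2BP1 knockout was the single call. Its ratio was 1.80, which stood at percentile 98.1 of 10839 coding genes. There, 4.12% of the coding genes were called wider and 1.08% narrower. In the IGF2BP2 knockout 0 members were called, against 5.90% of the coding genes wider and 2.63% narrower, and in the IGF2BP3 knockout 0, against 3.68 and 2.60%. With undivided widths 1.61% of the coding genes were called wider and 4.78% narrower after IGF2BP2 knockout, and 2.30 and 3.87% after IGF2BP3 knockout, so which direction was the more frequent depended on the scaling. NFKB2 in the IGF2BP2 knockout was compared by the wider of its 2 peaks (ratio 0.933). With their widths summed, its ratio was 1.85, and about 7% of the coding genes were called wider on summed widths.

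The other members lay close to the bulk of the coding genes. NFKBIB had the next highest ratio in the IGF2BP1 knockout, 1.27, and CHUK the lowest, 0.857. The median ratio of the 10 members was 0.942, 1.17 and 1.08 after IGF2BP1, IGF2BP2 and IGF2BP3 knockout, beside 0.991, 1.18 and 1.08 over all coding genes, and 2, 4 and 5 members lay above the latter. With undivided widths, 7, 4 and 5 of the 10 peaks were wider than in the control and 3, 6 and 5 narrower. The members thus lay on both sides of the coding-gene median in each knockout list.

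**Figure D3:**
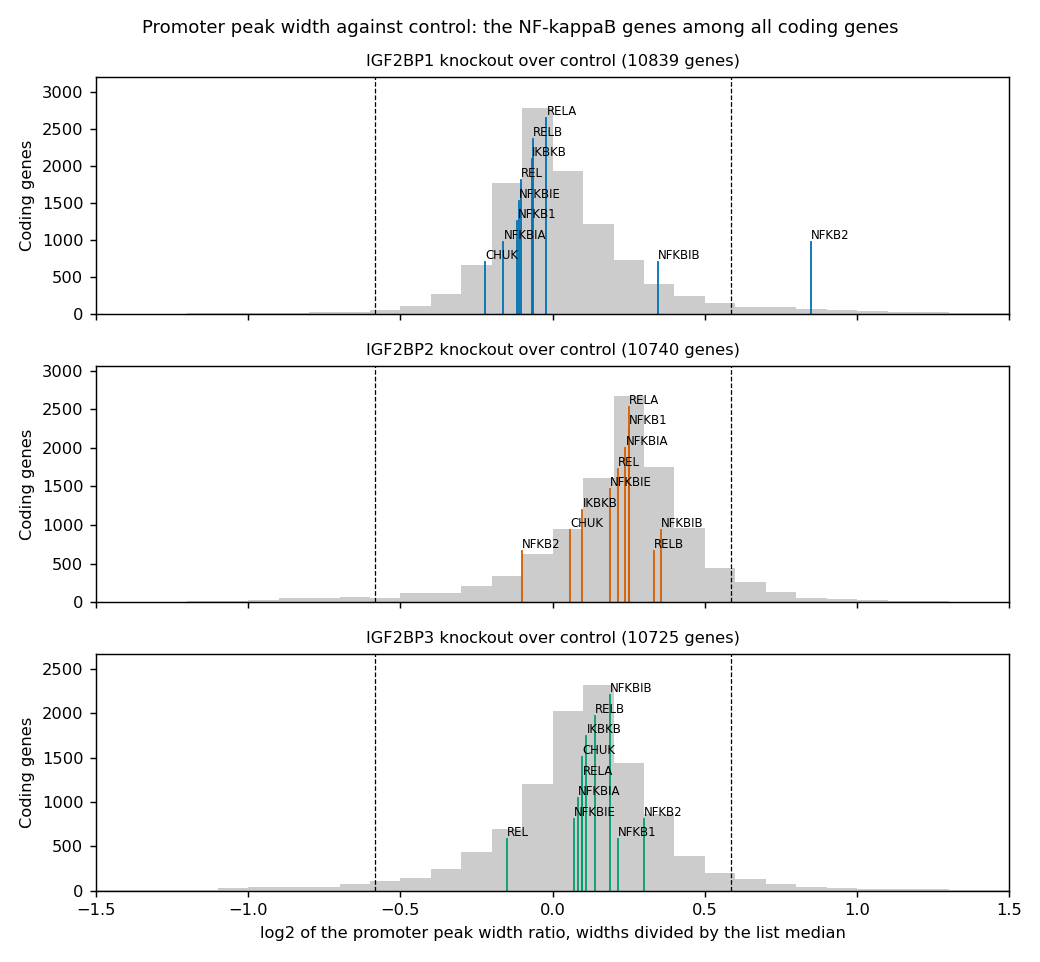
Grey bars count coding genes by the log2 ratio of promoter peak width in each knockout list over the control list, each width divided by the median of its list. Coloured lines mark the 10 NF-kappaB genes (line height only separates the labels) and dashed lines the ratio of 1.5 in either direction, which NFKB2 alone passed, in the IGF2BP1 knockout at 1.80.

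Away from the promoters there were 15 sites, of which 3 lay within a gene, 7 in a flank and 5 at a start or end of another coding gene. The latter were at PSD in the window of NFKB2, CLASRP beside RELB, SLC35B2 beside NFKBIE, ERLIN1 beside CHUK and POLB beside IKBKB, and all 5 were in every list. The widest was the site at ERLIN1, which overlapped the far end of CHUK and measured 1685 bp in the control and 2130, 1715 and 2093 bp after IGF2BP1, IGF2BP2 and IGF2BP3 knockout. Together with the promoters, 20 of 25 sites (80.0%) were in all 4 lists, beside 48.9% of the 44916 sites in or near coding genes. The classes differed, with all 15 sites at promoters or at ends of other coding genes in every list and 5 of the 10 flank and intragenic sites. The 48.9% was not split by class, so it is not a matched share for the 80.0%. Of the member promoters, 3 were gene ends chosen by their peak. Exons and introns were not in the table used, so whether a site is exonic or intronic was not determined.

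**Figure D4:**
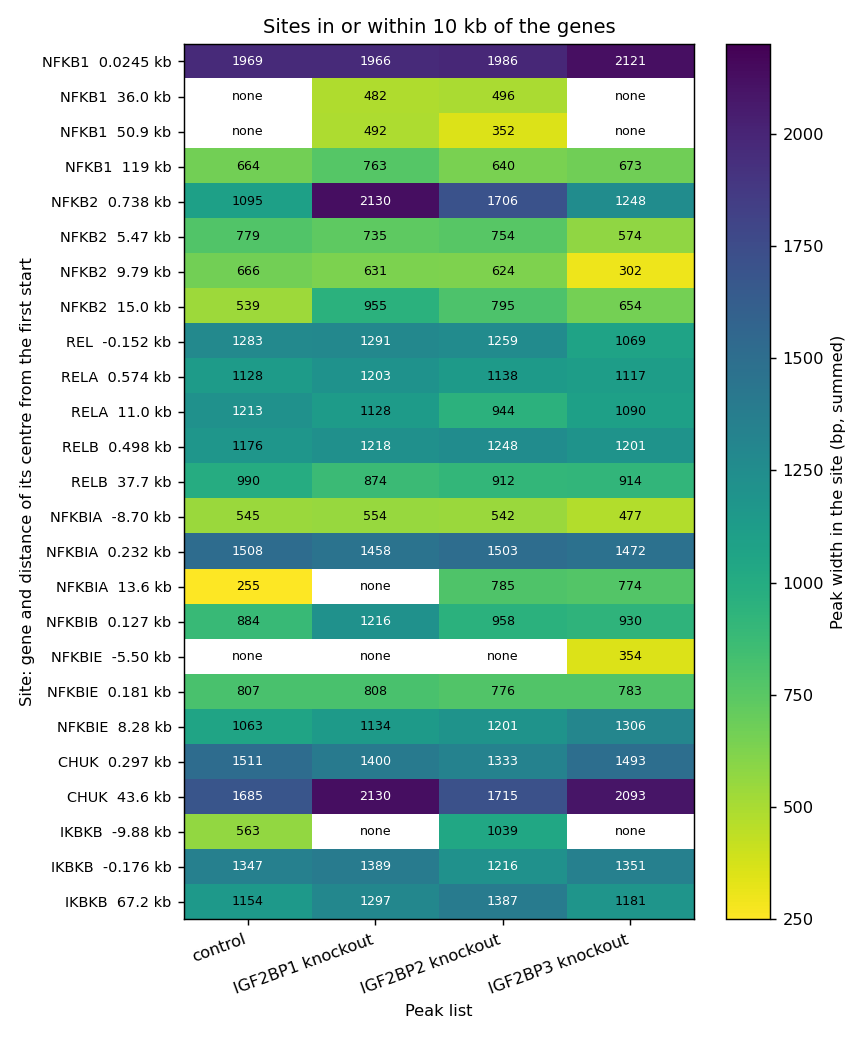
Each row is a site in or within 10 kb of a gene, labelled with the gene and the distance of its centre from the first start (negative before the start), and each cell gives the summed width in bp of the peaks of that list in the site, or none. The 5 rows with an empty cell are at NFKB1 (36.0 and 50.9 kb), NFKBIA (13.6 kb), NFKBIE (-5.50 kb) and IKBKB (-9.88 kb).

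The body of NFKB1, 116 kb long, held sites 36.0 and 50.9 kb from the start, both in the IGF2BP1 and IGF2BP2 knockout lists alone. The nearer measured 482 bp after IGF2BP1 knockout (102537141 to 102537622) and 496 bp after IGF2BP2 knockout (102537135 to 102537630). The farther measured 492 bp after IGF2BP1 knockout (102552005 to 102552496) and 352 bp after IGF2BP2 knockout (102552125 to 102552476). Their percentiles were 8.02, 26.9, 9.01 and 7.92, in the order given, so these were narrow peaks in both lists. The fourth NFKB1 site, 119 kb from the start and beyond the gene, overlapped a start of the non-coding gene LOC105377347 and was in all 4 lists at 640 to 763 bp.

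NFKB2 had the most crowded window of the members, with 4 sites in 28.4 kb, or 1.41 per 10 kb, counting the site at PSD. This was at percentile 97.7 of 10582 coding genes with a promoter peak in every list (median 0.417 per 10 kb). The genes compared were not matched for window length. Of members with windows of similar length, NFKBIE (27.4 kb) stood at percentile 92.7 and NFKBIB (29.2 kb) at 38.6. All 4 NFKB2 sites were in every list. The intragenic one, 5.47 kb from the first start, measured 779 bp in the control (102399195 to 102399973) and 735, 754 and 574 bp after IGF2BP1, IGF2BP2 and IGF2BP3 knockout. The next, 9.79 kb from the start and inside the neighbour PSD, measured 666, 631 and 624 bp in the first 3 lists and 302 bp after IGF2BP3 knockout, where it was at percentile 2.00. REL and NFKBIB had no site but the promoter. REL was thereby among the sparsest genes, with 0.143 per 10 kb (percentile 6.71).

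NFKBIA had 3 sites in 23.2 kb (percentile 96.2). One, at -8.70 kb from the start (35413181 to 35413725 in the control), was in all 4 lists at 477 to 554 bp. The other, past the end of the gene, was the site at the limit of the 10 kb window. The IGF2BP2 knockout peak there (35390731 to 35391515, 785 bp) came within 9998 bp of the gene, the IGF2BP3 knockout peak (35390729 to 35391502, 774 bp) within 10011 bp and the control peak (35390988 to 35391242, 255 bp) within 10271 bp, so the first was just inside and the others just outside. The control peak stood at percentile 0.247 of its list, among the narrowest, while the other peaks were at 65.0 and 56.3, and the IGF2BP1 knockout had none.

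At IKBKB, a site at -9.88 kb from the gene end was in the control (42261303 to 42261865, 563 bp, percentile 25.8) and the IGF2BP2 knockout (42260899 to 42261937, 1039 bp, percentile 81.9) and in neither other list. At NFKBIE, a peak of 354 bp (44270870 to 44271223), at -5.50 kb from the gene end, was in the IGF2BP3 knockout alone, at percentile 6.13. RELA had 1 site besides its promoter, just past the far end of the gene, with 1213 bp in the control (65652285 to 65653497) and 1128, 944 and 1090 bp after IGF2BP1, IGF2BP2 and IGF2BP3 knockout.

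Counted as sites in 1 list of a pair and not the other, the IGF2BP1 knockout gained 2 of 24 sites (8.33%, both in NFKB1) and lost 2 (8.33%, at IKBKB and at NFKBIA, where the control peak lay just outside the window). Among all sites in or near coding genes, 24.0% were gained and 6.76% lost. The IGF2BP2 knockout gained 2 of 24 (8.33%, the same pair in NFKB1) and lost 0, against 30.6 and 5.59%. The IGF2BP3 knockout gained 1 of 23 (4.35%, at NFKBIE) and lost 1 (4.35%, at IKBKB), against 17.6 and 13.7%. All of these were flank or intragenic sites, of which the IGF2BP1 knockout gained 2 of 9 and lost 2, the IGF2BP2 knockout gained 2 of 9 and lost 0, and the IGF2BP3 knockout gained 1 of 8 and lost 1. The background shares cover sites of every class. With each list limited to its 39194 widest peaks, 0 of 22 sites were gained in any knockout (background 15.3, 15.4 and 14.1%) and 3, 0 and 2 were lost (background 17.1, 20.2 and 18.2%). The control list holds 39194 peaks, so the limit removed peaks from the knockout lists alone, the narrowest of each. The gained peaks, at percentiles 6.13 to 26.9 of their lists, were among those removed, so the 0 follows from the limit.

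The other genes of the pathway were read for a promoter peak in the same way (within 1 kb of a start, or of either gene end where the table has no start). Of 30 further regulators, 28 had one in the control, IGF2BP1 and IGF2BP3 knockout lists and 27 in the IGF2BP2 knockout list. MYD88, the adaptor of Toll-like and interleukin-1 receptors, was the gene lost in the IGF2BP2 knockout. Its peak measured 989 bp in the control (38136686 to 38137674 on chromosome 3), 1204 bp after IGF2BP1 knockout and 1042 bp after IGF2BP3 knockout, at percentiles 69.0, 79.0 and 76.4, so it was of ordinary width where present.

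Of 10 receptor genes, 7 had a promoter peak in each list, the same 7 throughout, and TNFRSF1B, LTBR and TLR4 had none. Of 23 target genes, 11, 11, 10 and 12 had one in the control, IGF2BP1, IGF2BP2 and IGF2BP3 knockout lists, and 11 had none in any list, CXCL8, ICAM1, TNF and IL1B among them. CCL2, a chemokine gene, had a peak in the IGF2BP3 knockout alone (34254913 to 34255668 on chromosome 17, 756 bp, percentile 54.6). CCND1, which encodes cyclin D1, had a narrow peak in every list but the IGF2BP2 knockout, of 419, 454 and 466 bp in the control, IGF2BP1 and IGF2BP3 knockouts. Of the 63 genes, 17 had no control promoter peak, and of these 0, 0 and 1 gained one after IGF2BP1, IGF2BP2 and IGF2BP3 knockout. Among all coding genes without a control promoter peak, 7.91, 8.77 and 6.35% gained one. Of the 46 with a control promoter peak, 0, 2 and 0 lost it, beside the shares of 0.787, 1.69 and 1.83% over all coding genes.

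**Figure D5:**
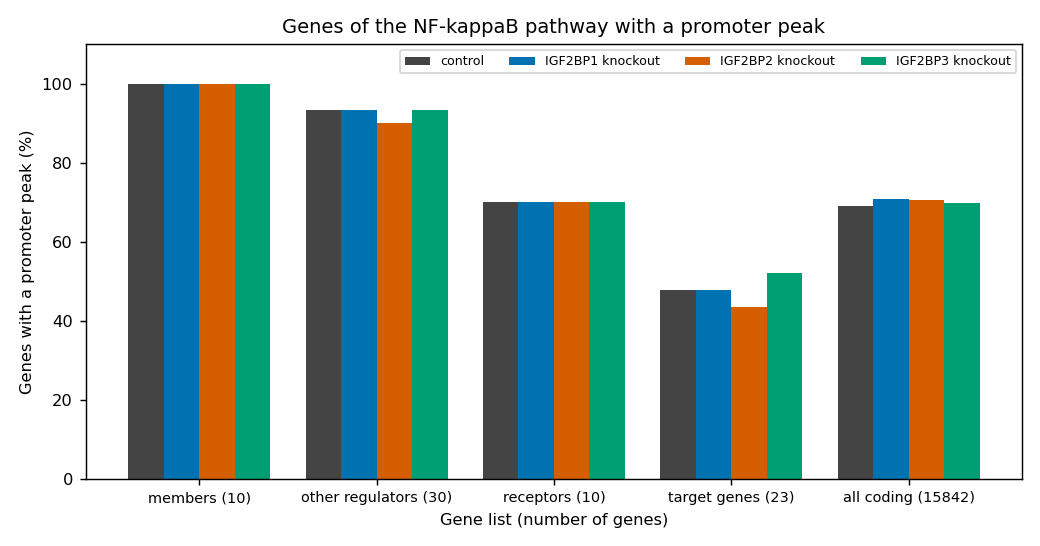
Percentage of genes with a promoter peak in each list, for the 10 NF-kappaB genes, 30 other regulators, 10 receptors, 23 target genes and all 15842 coding genes with a start in the table. All 10 members have one in every list (3 of them at a gene end chosen by its peak), the regulators follow, and the target genes (11 of 23 in the control) lie below the coding genes (69.0% in the control).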

How the data were processed

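The authors deposited 1 peak list per group, with chromosome, start and end and no other column. Per the submitters' processing notes, fastp 0.24.1, BWA 0.7.17, MACS2 3.0.0 and bedtools were used with GRCh38. Their settings, the peak threshold, and how the libraries of a group were combined are not given in the sources used here. The IGF2BP1 knockout list, from 3 libraries, held more peaks than the control list (50917 against 39194) and had a wider median (834 against 771 bp). The IGF2BP2 knockout list held the most peaks (60262) and had the narrowest median (651 bp). What part depth or threshold had in this was not tested.

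Starts were counted from 1. Genes, starts and promoter sequences came from RefSeq (GRCh38.p14). Starts were matched for 15842 of 20037 coding genes (79.1%) and 7 of the 10 members. For the other 3 the planned use of both gene ends was narrowed to the end under a peak, because the other end of NFKBIE lies beside SLC35B2. Computation was in Python 3.11.15 with NumPy 2.4.6, tested on made-up peaks with known changes.

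The members, gene lists and measures were chosen with earlier results of these data known. Named were all members, sites in all 4 lists, in all 3 knockouts or in the control alone, or the widest of a gene, and pathway genes with a gained or lost promoter peak. The remaining sites that were not in every list, and listed genes without a peak, were named after their values were seen, and some of these genes are not reported here. Alternatives covered the promoter distance, scaling, threshold, overlap, window and list length.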

Additional observations from a re-analysis of the deposited data

How the results depend on the processing

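The gene counts and site counts were recomputed with other settings, changing 1 choice at a time, and 94 values stayed within 1.5 times the reported one while 20 moved further. The 94 include counts of 0 that stayed at 0, among them the gains of a member promoter peak, which could not occur. The tally is therefore no measure of how stable the counts are. Promoter distances of 500 bp and 2 kb, undivided widths, scaling by the median promoter width, a percentile difference of 20 points, and the peak over the start alone changed no count of members called. With the peak over the start alone, RELB had no peak in the IGF2BP3 knockout and so no ratio. With summed promoter widths, 1 member was called wider in the IGF2BP2 knockout (NFKB2, beside about 7% of coding genes). At the lower of the other thresholds tried, 2 members were called wider in the IGF2BP1 knockout (NFKB2 and NFKBIB, beside 10.4% of coding genes) and 2 in the IGF2BP2 knockout (RELB and NFKBIB, beside 30.4%), and at a threshold of 2 there were 0 in the IGF2BP1 knockout (beside 1.06%). No member lost its promoter peak at 500 bp, at 2 kb or with the widest peaks, and a gain could not occur, since all have a control peak.

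With the 39194 widest peaks of each list, sites gained around the members numbered 0 of 22 in each of the 3 knockouts (beside 15.3, 15.4 and 14.1% of all sites). This limit left the control list whole and removed narrow peaks from the knockout lists alone. Sites lost were 3 in the IGF2BP1 knockout (beside 17.1%) and 2 in the IGF2BP3 knockout (beside 18.2%). Pathway genes with a lost promoter peak were 1 in the IGF2BP1 knockout (CCND1) and 1 in the IGF2BP3 knockout (TLR3). Both were also among the 3 lost in the IGF2BP2 knockout, with MYD88. Of all coding genes with a control promoter peak, about 2, 4 and 2% lost it after IGF2BP1, IGF2BP2 and IGF2BP3 knockout. In the gene bodies alone, sites lost in the IGF2BP1 knockout were 0 of 14 (beside 6.28% of all sites). Sites gained and lost in the IGF2BP3 knockout were both 0 of 12 (beside 17.2 and 13.1%). With 5 kb on either side, the same counts were 0 of 19 (beside 6.59%) and 0 of 17 (beside 17.3 and 13.5%). With 20 kb, the comparisons held 32, 33 and 30 sites for the IGF2BP1, IGF2BP2 and IGF2BP3 knockouts, as more sites enter a wider window. In the same order, sites lost were 4, 1 and 2 (beside 6.89, 5.59 and 13.8% of all sites). Sites gained were 3, 4 and 1 (beside 24.5, 31.2 and 18.2%). Where no construction of the alternative shows the cause, the cause was not tested.

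No paired analysis was possible because each group has 1 list and no value per library, which also kept any library from being left out. Depth, peak height and replicate spread are unknown, so a missing peak cannot be told apart from one below the threshold of the caller.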
